A study of Mus musculus with 36 samples.

Results

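The 8 genes described here carry the hepatic sensing of glucose and fructose and its carbohydrate-response arm: Slc2a2, Gckr, Khk, Pfkfb1, Pklr, Mlxipl, Txnip and Pnpla3. They were chosen by symbol, and all 8 were found among 24346 different symbols in the expression tables, 24066 of them on a single row. All 8 also passed the filter on low values, a mean of at least 0.1 FPKM (fragments scaled to transcript length and to the mapped fragments of the library), as did 13215 genes in all.

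Liver RNA came from male C57BL/6JRj mice, an inbred strain, aged 16 weeks, kept 5 to a cage under 12 h of light and 12 h of dark with chow always present. Intermittent hypoxia (IH) was given as a model of the hypoxic stress of sleep apnea. It ran for 4 weeks from zeitgeber time (ZT) 0, lights on, to ZT8, as 60 cycles per h between 5% and 21% inspired oxygen. Control mice had the same cycling of air with air over the same hours. At ZT0, ZT4, ZT8, ZT12, ZT16 and ZT20, 3 mice per condition gave 1 library each, for 12 groups and 36 libraries, so each mouse was sampled once and the time course runs across animals.

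Glucose enters the hepatocyte through the low-affinity transporter GLUT2, encoded by Slc2a2, and the regulatory protein encoded by Gckr restrains its phosphorylation when glucose is low. Fructose is phosphorylated by ketohexokinase, encoded by Khk. Hexose phosphates activate ChREBP, the product of Mlxipl, which with its partner Mlx binds carbohydrate response elements (ChoREs), a pair of E-box-like sequences, at genes such as Pklr and Txnip.

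The libraries were alike in total apart from control ZT12 replicate 2. Its FPKM values added up to 758113, and those of the other libraries to 540095 at the least and 579428 at the most. Reads were not counted in the files, so the depth is not known in reads, but the steps between low values put each library at 0.779 to 1.31 times the depth of the median library. Replicates correlated at r = 0.987 to 0.997 over genes outside the control ZT12 group, where r fell to 0.967. Saa1, an acute-phase gene, stood above 10000 FPKM in 3 libraries, IH ZT0 replicate 2, control ZT12 replicate 2 and control ZT16 replicate 3. Control ZT12 replicate 2 also held the highest summed level of 5 Kupffer cell markers (125 FPKM, with a control median of 34.0 and an IH median of 24.8) and of the lymphocyte and neutrophil markers (107 FPKM, with 6.21 FPKM the highest in IH), and the part of these cells in the results was not tested.

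Hepatocyte markers were summed to check the tissue. The 6 hepatocyte markers in the tables together held 38754 to 65329 FPKM in the control libraries and 40655 to 56215 FPKM in the IH libraries. The B-cell and T-cell markers Ms4a1 and Cd3e and the adipocyte markers Adipoq, Plin1 and Lep stayed below 0.5 FPKM in every library. In bulk liver, fewer cells of a type and less RNA per cell cannot be told apart.

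The upstream sequences of 4 members are shown, each with a ChoRE, a single E-box or a cAMP response element in letters that a search could find. The Khk window, which also held an E-box, is not shown. Windows of 300 bases from RefSeq on GRCm38.p6, 250 before the transcript start and 50 from it on, were found for all 8 members, 13 windows in all. Capitals mark an inverted ChoRE in Pklr (CACGNG and CNCGTG, 5 bases apart), a tandem ChoRE in Txnip (CACGNG and CACGNG, 5 bases apart), an E-box (CACGTG) in Mlxipl and a cAMP response element (CRE, TGACGTCA) in Pnpla3. Both strands were searched, with any base allowed at N. The letters were chosen after the windows had been seen.
Pklr, chr3:89136373-89136571, plus strand: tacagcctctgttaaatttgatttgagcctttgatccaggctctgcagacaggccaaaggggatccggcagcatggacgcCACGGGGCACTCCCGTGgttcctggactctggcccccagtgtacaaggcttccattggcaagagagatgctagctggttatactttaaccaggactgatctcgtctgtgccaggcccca
Txnip, chr3:96557707-96557956, plus strand: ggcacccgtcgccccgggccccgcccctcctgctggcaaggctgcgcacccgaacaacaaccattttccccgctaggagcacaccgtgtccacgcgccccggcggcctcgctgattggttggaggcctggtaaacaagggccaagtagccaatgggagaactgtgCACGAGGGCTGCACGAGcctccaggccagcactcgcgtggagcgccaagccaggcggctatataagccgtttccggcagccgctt
Mlxipl, chr5:135089640-135089889, plus strand: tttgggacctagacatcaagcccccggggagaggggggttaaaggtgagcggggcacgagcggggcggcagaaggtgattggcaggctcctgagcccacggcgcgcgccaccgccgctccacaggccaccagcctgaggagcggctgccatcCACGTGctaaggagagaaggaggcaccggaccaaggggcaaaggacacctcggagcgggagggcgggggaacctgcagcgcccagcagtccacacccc
Pnpla3, chr15:84167566-84167815, plus strand: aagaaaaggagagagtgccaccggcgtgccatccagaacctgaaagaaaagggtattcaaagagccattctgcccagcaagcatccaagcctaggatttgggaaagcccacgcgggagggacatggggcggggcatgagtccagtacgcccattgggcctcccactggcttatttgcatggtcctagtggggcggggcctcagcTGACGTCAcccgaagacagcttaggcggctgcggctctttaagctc

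The Pklr element lies at -170 to -154 from the downstream of its annotated starts, in the first intron of the transcript that begins further upstream. Its letters were found in 15 of 32851 windows (0.0457%). The Txnip element lies at -85 to -69, inside an exon of the antisense transcript Gm15441, and its letters were found in 16 windows (0.0487%). The Mlxipl E-box lies at -98 to -93 from the upstream of its starts, which are 17001 bases apart, and the Khk window held an E-box at -71 to -66. E-boxes were found in 7.15% of windows and the CRE, at -46 to -39 in Pnpla3, in 1.79%. No ChoRE, E-box or CRE in these letters was found in 8 of the 13 windows, those of Gckr, Slc2a2 and Pfkfb1 among them. A match is a description of the sequence and not a measured binding site.

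Levels differed widely among the members. FPKM is scaled to transcript length, so levels can be set side by side. Khk had the highest mean over the 36 libraries, at 336.5 FPKM (rank 221 of 24066 symbols), followed by Pklr at 124.6, Mlxipl at 109.2, Slc2a2 at 73.6, Gckr at 49.9, Txnip at 27.6, Pfkfb1 at 19.2 and Pnpla3 at 1.49 FPKM (rank 9020). Over the 18 control libraries Pklr ranged from 46.1 to 168.8 FPKM and Mlxipl from 66.7 to 130.5, so these neighbours in the order overlapped, as did Txnip (8.33 to 79.7) and Pfkfb1 (8.86 to 26.1). The lowest Khk library, at 215.9 FPKM in control, stood above the highest control library of every other member. Mlx averaged 18.7 FPKM, and Mlxip, the paralogue of Mlxipl, 0.814 FPKM.

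**Figure D1:**
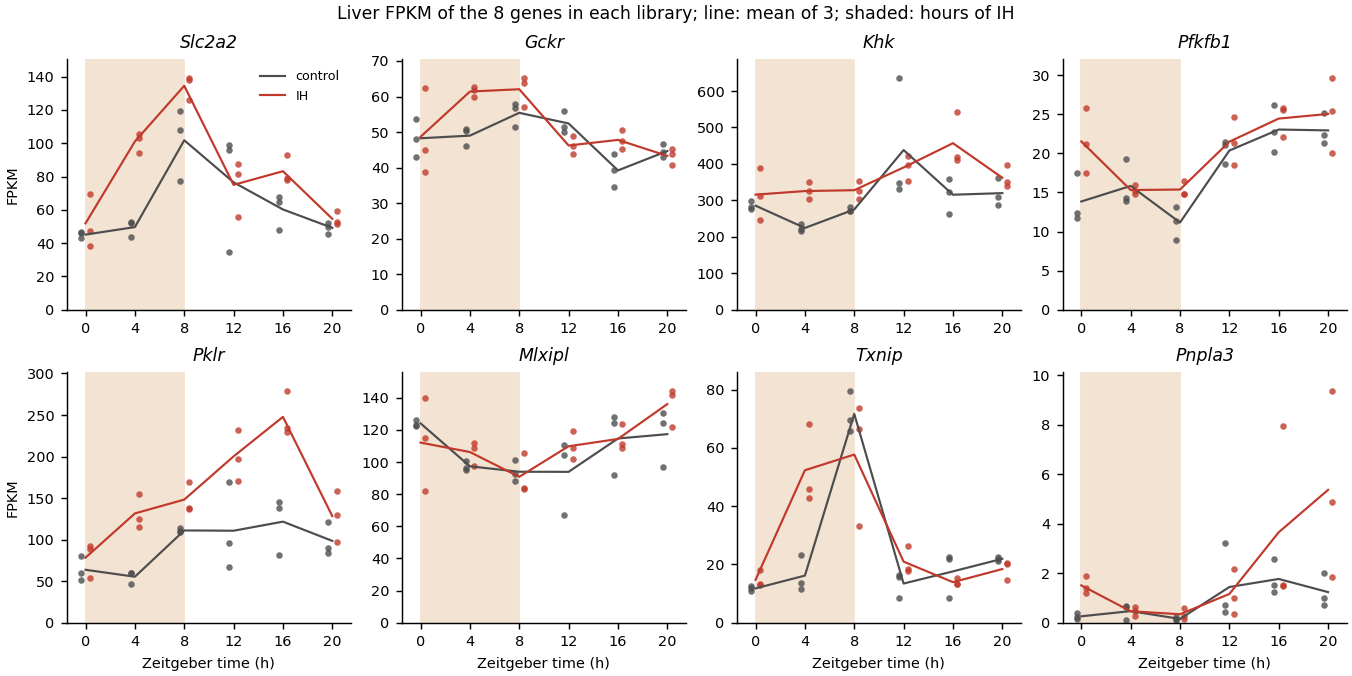
FPKM of each member (vertical axis) against zeitgeber time in h (horizontal axis), with a point for each of the 36 libraries and a line through the mean of the 3 mice of a group, control in grey and IH in red, and the hours of IH shaded. At ZT4 the IH libraries of Slc2a2, Pklr and Txnip (94.2 to 105.7, 115.7 to 154.4 and 42.8 to 68.2 FPKM) lie above the control libraries of that hour. Those of Gckr and Khk do so too, as do those of 26.7% of all genes.

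The main question was whether IH changed the level of these genes. Over all time points, with the time point as a factor, 1 of the 8 members passed the Benjamini-Hochberg (BH) adjusted p of 0.05 in limma, against 0.356% of all genes (higher in IH 0.303%). That gene was Pklr, the liver and red cell pyruvate kinase that closes glycolysis, at 0.71 ± 0.12 (SE) higher in IH on the log2(FPKM + 1) scale (adjusted p = 0.0018). All 8 differences were positive, from 0.06 to 0.71, with a median of 0.27, beside a median of 0.03 over all genes tested. Next in size were Pnpla3 (0.49 ± 0.18, adjusted p = 0.30), Slc2a2 (0.38 ± 0.11, adjusted p = 0.14), Txnip (0.29 ± 0.17, adjusted p = 0.55) and Khk (0.25 ± 0.08, adjusted p = 0.17). Pfkfb1 (0.21 ± 0.07, adjusted p = 0.24), Gckr (0.09 ± 0.05, adjusted p = 0.56) and Mlxipl (0.06 ± 0.07, adjusted p = 0.74) completed the order. Without control ZT12 replicate 2, Khk also passed, at 0.31 (adjusted p = 0.0053), where 1.19% of all genes did, and without the 3 libraries of high Saa1 at 0.31 (adjusted p = 7.6e-04), where 1.38% did.

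At ZT4 and ZT8 together, the mid-point and the end of the daily exposure, 4 of the 8 members were higher in IH, against 6.05% of all genes higher and 7.98% called in either direction. Pklr rose by 0.82 ± 0.15 (adjusted p = 0.014), Slc2a2 by 0.72 ± 0.13 (adjusted p = 0.014), Khk by 0.39 ± 0.06 (adjusted p = 0.010) and Gckr by 0.24 ± 0.05 (adjusted p = 0.025) on the log2(FPKM + 1) scale, in 6 libraries per condition. The other values were 0.64 ± 0.36 for Txnip (adjusted p = 0.27), 0.21 ± 0.12 for Pfkfb1 (adjusted p = 0.27), 0.11 ± 0.11 for Pnpla3 (adjusted p = 0.56) and 0.03 ± 0.07 for Mlxipl (adjusted p = 0.79). The median of the members was 0.32, beside 0.04 over all genes tested. Of all genes 799 were called higher and 255 lower, a split that became 460 and 460 with median-ratio scaling and 522 and 428 with quantile normalization, and 4 members were called under each. The share of all genes called fell to between 1.75% and 3.83% without any IH library of ZT4, IH ZT8 replicate 1 or 2, control ZT4 replicate 1 or 3, or control ZT8 replicate 1, where 3 or 4 members were called. The call for Gckr was lost when any of 7 of these 12 libraries was left out (adjusted p = 0.051 to 0.064).

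Some markers of hepatocytes and their zones and some clock genes also differed at these hours. Of the pericentral markers, the detoxifying enzymes Cyp2e1 and Cyp1a2 were higher in IH at ZT4 and ZT8 by 0.40 and 0.28 and Oat was lower by a difference of -0.41, while Glul did not pass. The summed level of the 4 markers had a median of 4240 FPKM in the control libraries of these hours and of 5526 FPKM in the IH libraries, against ranges over the day of 2378 to 6191 and 2751 to 7099 FPKM. Of the periportal markers Sds rose by 0.59, while Hal (0.03) and Cyp2f2 (-0.14) did not pass. Their summed level had a median of 1073 FPKM in both the control and the IH libraries of these hours. Of the hepatocyte markers Apoa1 rose by 0.34, while Alb (0.19), Ttr (0.24), Serpina1a (0.03), Apob (-0.10) and Hnf4a (-0.21) did not pass. The summed level of the 6 hepatocyte markers was 52992 to 56215 FPKM in IH and 45591 to 47037 FPKM in control at ZT4. At ZT8 it was 51483 to 53859 and 38754 to 50972 FPKM, with no overlap at either hour. Alb, with means over the day of 31326 FPKM in control and 33687 in IH, made up most of this sum. Of all single genes, 26.7% at ZT4 and 11.0% at ZT8 lay wholly above control. Over all time points, the endothelial marker Lyve1 was higher in IH (0.31, limma adjusted p = 0.018) and Oat lower (-0.35, adjusted p = 0.041). Of the 13 clock genes 4 were higher at ZT4 and ZT8 and 0 over all time points (2 at an unadjusted P under 0.05 in limma), Cry1 and Npas2 had the smallest P of rhythm in control and Nr1d1 and Cry1 in IH, and all 13 peaked earlier in IH, with IH minus control between -1.94 and -0.60 h and a median of -1.11 h. The part of these markers and clock genes in the differences of the members was not tested.

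The time points did not contribute alike. In the fit of each time point, 3 of 48 member values passed, Pklr, Slc2a2 and Txnip at ZT4, where 1.16% of all genes did. None of the members passed at the other hours in limma, where the share of all genes called was 0% at ZT0, 0.00757% at ZT8, 0.772% at ZT12, 0.00757% at ZT16 and 0% at ZT20, and 11 of the 48 values had an unadjusted P of at most 0.01, beside 3.51% of the values of all genes. Over the 48 pairs of groups, the IH libraries lay wholly above the control libraries in 18, wholly below in 2 and overlapped in 28. At ZT4 the IH libraries lay above in 5 members, where 26.7% of all genes showed it. At ZT8 they lay above in 4 (11.0% of all genes), at ZT16 in 4 (10.0%), at ZT0 in 3 (4.59%), at ZT12 in 2 (6.34%) and at ZT20 in 0 (11.8%). The gaps below control were Gckr at ZT12 (6.74% of all genes) and Txnip at ZT20 (4.18%). At the other hours no member lay below, beside 6.21% of all genes at ZT0, 7.79% at ZT4, 7.16% at ZT8 and 3.84% at ZT16.

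**Figure D2:**
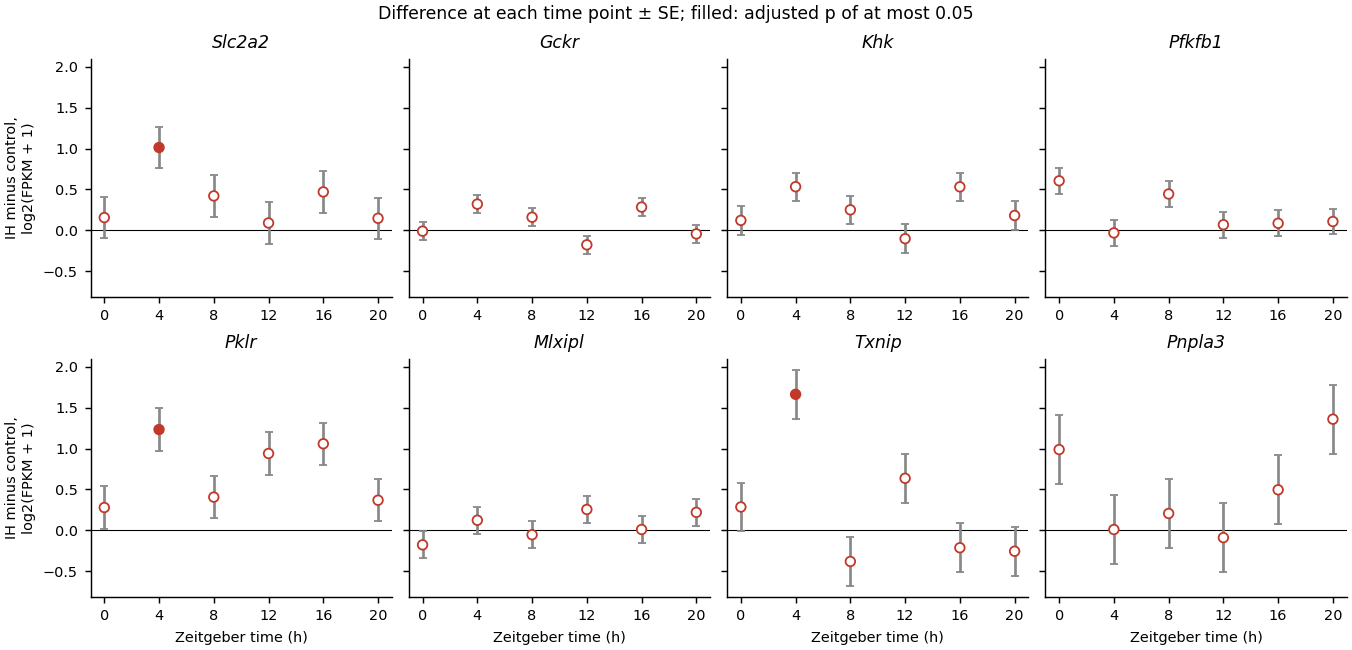
Difference between IH and control on the log2(FPKM + 1) scale (vertical axis, mean ± SE from the fit over 36 libraries) at each zeitgeber time in h (horizontal axis), with filled points past an adjusted p of 0.05. The filled points are all at ZT4, at 1.01 for Slc2a2, 1.23 for Pklr and 1.67 for Txnip.

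Slc2a2, the glucose transporter, differed most at ZT4. The IH libraries held 94.2, 105.7 and 103.2 FPKM at ZT4 and the control libraries 52.3, 52.8 and 43.8 FPKM. At ZT8 they held 139.4, 137.9 and 126.2 FPKM in IH and 77.5, 108.2 and 119.5 FPKM in control. All IH libraries were therefore above all control libraries at both hours, and the IH libraries of ZT4 lay within the range of the control libraries of ZT8. The difference at ZT4 was 1.01 ± 0.25 on the log2 scale (2.04-fold in FPKM, adjusted p = 0.044). At ZT12 the groups overlapped, with 81.6, 55.6 and 87.8 FPKM in IH and 96.0, 34.4 and 99.1 FPKM in control, the low value being control ZT12 replicate 2. The call at ZT4 was lost when any of 19 of the 36 libraries was left out (adjusted p = 0.051 to 0.18) and had an adjusted p of 0.0019 without control ZT12 replicate 2. It was also lost with libraries scaled to a common sum and with no filter on low values.

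Gckr, which encodes a regulatory protein of glucose phosphorylation, moved within a narrow range. Its IH libraries held 61.7, 62.6 and 59.9 FPKM at ZT4 against 50.7, 50.3 and 45.9 FPKM in control, a ratio of 1.25. At ZT12 the order turned, with 46.0, 43.7 and 49.0 FPKM in IH and 55.9, 50.0 and 51.3 FPKM in control (ratio 0.882). IH libraries were above all controls at ZT4 and ZT16 and below them at ZT12, and neither ZT4 (0.32 ± 0.11, adjusted p = 0.15) nor ZT12 (-0.18 ± 0.11, adjusted p = 0.33) passed alone, although ZT4 did without the 3 libraries of high Saa1 (adjusted p = 0.030).

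Khk, the entry enzyme of fructose metabolism, had 303.2, 324.4 and 349.1 FPKM in IH and 235.8, 221.5 and 215.9 FPKM in control at ZT4. At ZT8 the values were 325.9, 353.8 and 304.3 FPKM in IH and 282.9, 270.7 and 271.6 FPKM in control. The groups were apart at both hours and again at ZT16, where IH libraries held 410.7, 417.9 and 542.2 FPKM and controls 323.8, 358.8 and 264.0 FPKM. Control ZT12 replicate 2, at 636.7 FPKM, was the highest of all 36 libraries and stood beside 330.4 and 347.3 FPKM in its group. With it, the difference at ZT4 was 0.53 ± 0.17 (adjusted p = 0.12), and without it the same difference passed (adjusted p = 0.019).

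Pfkfb1 encodes the liver form of the bifunctional enzyme that makes and degrades the allosteric activator of phosphofructokinase. Its IH libraries were above all controls at ZT0, with 21.2, 25.8 and 17.5 FPKM against 17.5, 11.7 and 12.4 FPKM, where the nearest pair was 17.54 and 17.48 FPKM. They were above again at ZT8, with 14.9, 14.8 and 16.5 FPKM against 11.4, 13.2 and 8.86 FPKM. Neither ZT0 (0.61 ± 0.16, adjusted p = 0.27) nor ZT8 (0.44 ± 0.16, adjusted p = 0.87) passed over all genes. Pfkfb1 shared 123 exonic bases with Apex2 on the opposite strand, whose level was 1.91 to 5.80 FPKM.

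Pklr had the largest difference of the members over all time points. At ZT4 the IH libraries held 124.6, 154.4 and 115.7 FPKM and the control libraries 60.4, 46.1 and 59.5 FPKM. At ZT12 they held 197.2, 170.9 and 232.6 FPKM against 95.9, 67.4 and 168.8 FPKM, and at ZT16 234.6, 229.4 and 279.4 FPKM against 145.6, 137.6 and 81.7 FPKM. All IH libraries were above all control libraries at ZT4, ZT8, ZT12 and ZT16, although at ZT12 by a gap of only a few FPKM, and overlapped with them at ZT0 and ZT20. Group means at ZT4 were 131.6 ± 20.2 and 55.4 ± 8.0 FPKM (SD, n = 3), a ratio of 2.38 and a log2 difference of 1.23 ± 0.26 (limma adjusted p = 0.016). At ZT16 the ratio was 2.04 and the log2 difference 1.06 ± 0.26 (limma adjusted p = 0.69), at an hour where 1 gene of all tested passed. The ZT4 call was lost without IH ZT4 replicate 2 (adjusted p = 0.10), IH ZT4 replicate 3 (0.053) or control ZT4 replicate 2 (0.063), and with libraries scaled to a common sum (0.059).

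Reads of Pklr could be shared with its neighbour. Hcn3, on the opposite strand, overlaps Pklr by 711 exonic bases, and the strand setting of the counting was not given in the sources used here. Hcn3 ranged from 0.809 to 16.2 FPKM with a median of 5.56, against 114.8 FPKM for Pklr, and correlated with it at r = 0.877 over the 36 libraries. Whether reads were assigned across the strands was not tested.

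Mlxipl, which encodes ChREBP itself, had overlapping groups at each of the 6 time points. Values are per gene, so transcripts from its starts, 17001 bases apart, cannot be told apart. Its IH libraries ranged from 81.8 to 144.4 FPKM with a median of 109.9, and its control libraries from 66.7 to 130.5 FPKM with a median of 102.9. The ratio of the means was between 0.903 at ZT0 and 1.17 at ZT12. The difference at ZT4 and ZT8 changed sign between scalings and was smaller than its SE in the main fit. Mlx (0.08 on the log2 scale over all time points, limma adjusted p = 0.57) and Srebf1, the gene of SREBP-1c (0.34, adjusted p = 0.26), did not pass over all time points either, and of these Srebf1 passed at ZT4 and ZT8 (0.50, adjusted p = 0.044). The Srebf1 call was lost with the median ratio, a common sum, no filter on low values or a replicate block.

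Txnip, an arrestin-like protein that binds thioredoxin and limits glucose uptake, had the largest single-hour difference of the members on the log2(FPKM + 1) scale. At ZT4 the IH libraries held 68.2, 42.8 and 46.0 FPKM and the control libraries 13.6, 23.4 and 11.5 FPKM. At ZT8 both conditions were high, with 73.6, 33.2 and 66.4 FPKM in IH and 65.65, 79.7 and 69.7 FPKM in control. In control the rise therefore fell between ZT4 and ZT8, while in IH the libraries were already high at ZT4, with no overlap between the conditions. The ZT4 difference was 1.67 ± 0.30 on the log2 scale (3.24-fold in FPKM, adjusted p = 0.0062), and it passed without any of the 36 libraries in turn. At ZT8 the difference was -0.38 ± 0.30 (adjusted p = 1) and the groups overlapped. At ZT20 the IH libraries, at 20.5, 14.5 and 20.2 FPKM, were just below the controls, at 22.7, 21.9 and 21.2 FPKM.

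Pnpla3 encodes a lipid-droplet protein whose gene is known to respond to both SREBP-1c and ChREBP. It was the least expressed member, with the largest spread between replicates (0.55 on the log2 scale, against 0.14 for Gckr), and its changes are understated on the log2(FPKM + 1) scale. At ZT0 the IH libraries held 1.90, 1.21 and 1.42 FPKM and the control libraries 0.170, 0.399 and 0.211 FPKM, a ratio of 5.80 with no overlap. At ZT20 they held 9.38, 1.85 and 4.87 FPKM against 2.00, 0.995 and 0.717 FPKM, a ratio of 4.34, with overlap. From ZT4 to ZT12 the conditions overlapped, and control ZT12 replicate 2 held 3.21 FPKM beside 0.415 and 0.705 FPKM in its group. Neither ZT0 (0.99 ± 0.42, adjusted p = 0.58) nor ZT20 (1.36 ± 0.42, adjusted p = 0.77) passed.

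The daily rhythm was compared next, with a cosine of 24 h fitted to log2(FPKM + 1) in each condition and a nominal P of 0.01. In control, 5 of the 8 members were rhythmic (Slc2a2, Gckr, Pfkfb1, Pklr and Pnpla3), against 20.0% of all genes. In IH, 7 were rhythmic, all but Mlxipl (limma adjusted p = 0.028), against 39.9% of all genes. The cosines differed between the conditions in 0 of the 8 members after adjustment in limma (0% of all genes; 649 of 13215 genes, and Pnpla3 among the members at 0.027, had an unadjusted P under 0.05). The time courses, compared over the 6 time points without a curve, differed in 0 members (0.136% of all genes), with Txnip closest at an adjusted p of 0.085 and Gckr next at 0.28. Without the 3 libraries of high Saa1, Txnip (adjusted p = 0.012) and Slc2a2 (adjusted p = 0.032) passed, beside 0.795% of all genes, and Gckr did not (adjusted p = 0.14). Of the single libraries left out in turn, Txnip passed without IH ZT0 replicate 3 (limma adjusted p = 0.038), control ZT12 replicate 2 (0.046), control ZT12 replicate 3 (0.021) or control ZT16 replicate 3 (0.035), and Gckr without IH ZT0 replicate 3 (0.044), while 0.129% to 5.07% of all genes passed. In the fit of all 36 libraries, Txnip and Gckr were the members with an unadjusted P under 0.05 in that test.

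Peaks ran through the day in an order. In control, Gckr peaked at ZT6.79 ± 1.04 (SE), Txnip at 8.38 ± 1.84, Slc2a2 at 10.2 ± 1.0, Pklr at 14.0 ± 0.9, Khk at 14.7 ± 1.1, Pnpla3 at 16.2 ± 0.9, Pfkfb1 at 17.1 ± 0.8 and Mlxipl at 21.1 ± 1.2 h. In IH the fitted peaks were 6.15 ± 0.84 h for Gckr, 6.44 ± 0.62 for Txnip, 8.50 ± 0.75 for Slc2a2, 13.1 ± 0.6 for Pklr, 15.2 ± 0.9 for Khk, 18.0 ± 0.6 for Pfkfb1, 18.8 ± 0.7 for Pnpla3 and 19.4 ± 1.1 for Mlxipl. In both conditions the fitted peaks of Gckr, Txnip and Slc2a2 fell in the light phase and those of the other 5 members in the dark phase. Between conditions, 5 members were earlier in IH, from -0.64 h (Gckr) to -1.93 h (Txnip), and 3 later, by 0.41 h (Khk), 0.89 h (Pfkfb1) and 2.55 h (Pnpla3). Some of these peaks come from cosines that were not called, those of Txnip and Khk in control and of Mlxipl in both conditions. Among members rhythmic in both conditions, Gckr, Pklr and Slc2a2 were earlier in IH and Pfkfb1 and Pnpla3 later. No shift of a single member passed the test of the cosines, in a design sampled every 4 h.

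**Figure D3:**
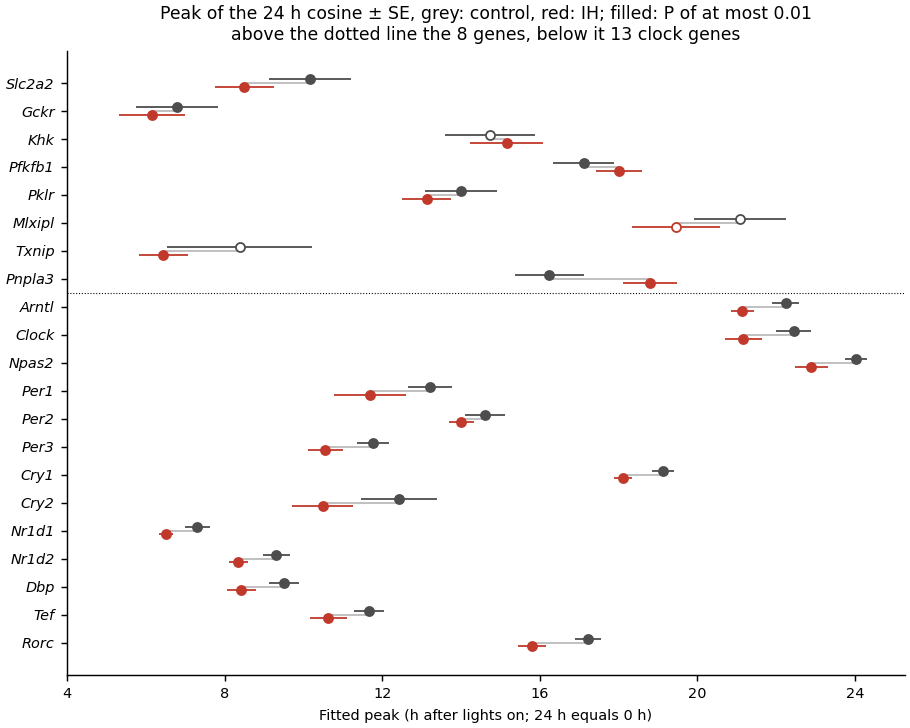
Fitted peak ± SE of the 24 h cosine (horizontal axis, h after lights on) for the 8 members above the dotted line and 13 clock genes below it, control in grey and IH in red, with filled points where the nominal P was at most 0.01. All 13 clock genes lie earlier in IH, as do 5 of the members, while Khk, Pfkfb1 and Pnpla3 lie later. The points of Txnip and Khk in control and of Mlxipl in both conditions are open.

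Fitted amplitudes were largest for Pnpla3, Txnip and Pklr in both conditions. On the log2 scale the cosine amplitude of Pnpla3 was 0.59 ± 0.13 in control and 1.02 ± 0.18 in IH, that of Txnip 0.56 ± 0.27 and 0.97 ± 0.16, and that of Pklr 0.52 ± 0.12 and 0.68 ± 0.11. Slc2a2 had 0.47 ± 0.13 and 0.57 ± 0.11 and Pfkfb1 0.45 ± 0.09 and 0.37 ± 0.06. Those of Gckr, Khk and Mlxipl lay between 0.18 and 0.30. Txnip in control rose and fell within 1 time point, from 16.2 ± 6.3 FPKM at ZT4 to 71.7 ± 7.2 at ZT8 and 13.4 ± 4.4 at ZT12 (SD, n = 3), and the 24 h cosine was not called (limma adjusted p = 0.29). With an F test over the 6 time points it was called in control (limma adjusted p = 4.7e-04).

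Which control genes count as rhythmic depended on single libraries, with calls made at the nominal P of 0.01. Without control ZT12 replicate 2, Khk became rhythmic in control (limma adjusted p = 0.0097), and so it did without control ZT16 replicate 3 (adjusted p = 0.022). Slc2a2 lost its call in control when any of 9 of the 18 libraries was left out (limma adjusted p = 0.055 to 0.083), and Gckr when any of 5 was (adjusted p = 0.056 to 0.084). Mlxipl gained a call in IH without IH ZT0 replicate 2 (limma adjusted p = 0.0015), IH ZT4 replicate 2 (0.028) or IH ZT12 replicate 2 (0.022), and in control without control ZT12 replicate 1 (0.052) or control ZT20 replicate 1 (0.029). Without the 3 libraries of high Saa1, all 8 members were rhythmic in IH, against 42.4% of all genes, and 7 in control, against 27.4%, with Khk (adjusted p = 8.3e-04) and Mlxipl (adjusted p = 0.010) added there.

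Other genes of the pathway were counted from fixed lists, none of which holds a member, although some genes, such as Tkfc and Pfkfb3, stand on more than 1 list. Of 35 tested ChREBP target genes, 7 were higher in IH over all time points and 0 lower, with a median difference of 0.32, beside 0.303% higher and a median of 0.03 among all genes. The 7 included Slc37a4, the glucose 6-phosphate transporter (0.35 ± 0.06, adjusted p = 0.0018), and Fasn, the fatty acid synthase (0.74 ± 0.13, adjusted p = 0.0022). At ZT4 and ZT8, 12 of the 35 were higher and 0 lower, beside 6.05% of all genes higher. Gys2, the liver glycogen synthase, was among the 12 (0.58, adjusted p = 0.024). With the median ratio 7 were higher over all time points and 8 at ZT4 and ZT8, with a common sum 7 and 7, and 0 were lower under any scaling. Without the 3 libraries of high Saa1 9 were higher over all time points, beside 1.38% of all genes called. Rhythms were called for 14 of the 35 in control and 24 in IH, against 20.0% and 39.9% of all genes. The larger number in IH was therefore seen among all genes too. Thrsp had the smallest P in control (amplitude 1.74, peak at 14.4 h) and Gys2 in IH (amplitude 1.06, peak at 10.5 h). Slc37a4 was next in both, with peaks at 12.1 and 10.5 h.

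Glycolysis and fructose handling were counted next. Of all genes, 0.303% were higher over all time points and 6.05% at ZT4 and ZT8. Rhythms were called in 20.0% of all genes in control and 39.9% in IH. Of 24 tested genes of glycolysis, 2 were higher over all time points (Gpi1 among them, 0.30 ± 0.04, adjusted p = 0.0011) and 0 lower (3 and 0 without the 3 libraries of high Saa1), and 4 were higher and 1 lower, Ldha, at ZT4 and ZT8 (2 and 2 with the median ratio). Pfkfb3 and Pgk1 had the smallest P of the 8 rhythmic in control, and Pgk1 and Gpi1 of the 15 in IH. Of 14 tested genes of fructose and polyol handling, 2 were higher over all time points, among them Tkfc, the triokinase that acts after Khk (0.46 ± 0.08, adjusted p = 0.0021). At ZT4 and ZT8, 5 were higher and 0 lower (5 and 1 with the median ratio). Adh1 and Tkfc led the 4 rhythmic in control, and Sord and Tkfc the 10 in IH.

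Regulators of the pathway and paralogues of the members were counted last. The shares of all genes were again 6.05% higher at ZT4 and ZT8, 20.0% rhythmic in control and 39.9% rhythmic in IH. Of 26 tested partners and regulators of ChREBP, 0 passed over all time points in limma (2 at an unadjusted P under 0.05), and 2 were higher at ZT4 and ZT8 (0 with the median ratio or a common sum), with a median of 0.00 there. Nr1h2 and Prkaca had the smallest P of the 5 rhythmic in control, and Prkaca and Mgea5, which removes O-GlcNAc, of the 12 in IH. Of 17 tested genes of the insulin, SREBP-1c and fasting arm, 0 passed over all time points in limma (2 at an unadjusted P under 0.05). At ZT4 and ZT8 2 of them were higher (0 with the median ratio or a common sum) and 1 lower, Insig2, with a difference of -0.79. Pdk4 and Insig2 led the rhythms of that arm in both conditions, 7 genes in control and 10 in IH. Of 21 tested paralogues of the members 0 passed over all time points in limma (4 at an unadjusted P under 0.05) and 5 were higher at ZT4 and ZT8 (4 with the median ratio or a common sum), the fructose transporter gene Slc2a5 among them (0.44, adjusted p = 0.024). Pfkfb3 and Pnpla7 led the 7 rhythmic in control, and Pnpla2 and Pnpla7 the 16 in IH.

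**Figure D4:**
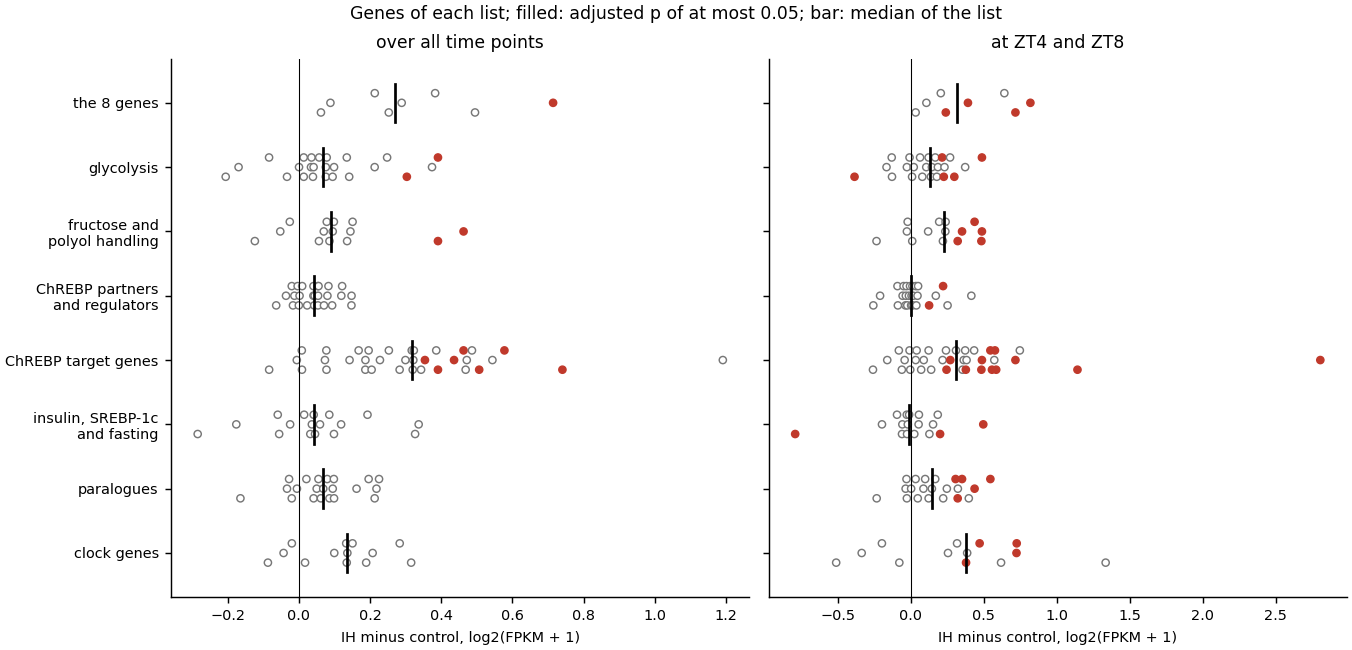
Difference between IH and control on the log2(FPKM + 1) scale (horizontal axis) for each tested gene of the 8 members and of 7 lists (vertical axis), over all time points on the left and at ZT4 and ZT8 on the right, with filled points past an adjusted p of 0.05 and a bar at the median of a list. The median of the ChREBP target genes lies at 0.32 over all time points, and that of their partners and regulators at 0.04.

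The genes most like each member over the 36 libraries are given as a description, since all share library and time of day. Among the 3 nearest to Pklr were Tkfc (Pearson r = 0.936) and Hcn3 (0.877), and the nearest to Slc2a2 were Bbox1 (0.942), Ugp2 (0.932) and Cyp2d22 (0.909). Pnpla3 was nearest to the lipogenic genes Acly (0.846) and Fasn (0.785) and to Pnpla5 (0.845), and Khk to Ndufa5 (0.845), Cox5a (0.841) and Endog (0.839). Gckr was nearest to Idh3g (0.906), Mettl5 (0.894) and Tprkb (0.889), and Txnip to Slc38a9 (0.863), Jade1 (0.852) and Hmgb3 (0.837). Mlxipl was nearest to Ankrd23 (0.847), Szrd1 (0.833) and Sgpl1 (0.830), and Pfkfb1, at lower values, to Pgk1 (0.770), Adamtsl5 (0.752) and Pole4 (0.743). Among the members, the highest r was that of Txnip with Slc2a2 (0.733), followed by Pnpla3 with Pfkfb1 (0.704) and Slc2a2 with Gckr (0.702), and the lowest that of Pfkfb1 with Gckr (-0.562).

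On mm10, with positions from GENCODE vM21, 6 of the members share a pair of chromosomes. Slc2a2 (chr3:28697903-28731359), Pklr (chr3:89136142-89146784) and Txnip (chr3:96557957-96561883) lie on chromosome 3, and Khk (chr5:30921431-30931248), Gckr (chr5:31297443-31327314) and Mlxipl (chr5:135089890-135138382) on chromosome 5. Pnpla3 (chr15:84167837-84187236) and Pfkfb1 (chrX:150588229-150643878) lie alone, and all 8 are on the plus strand. The antisense gene Gm15441 shares 606 exonic bases with Txnip and stayed between 0.017 and 0.35 FPKM. Mlxipl shares 235 exonic bases with the antisense gene Gm43500 and Pnpla3 105 with Gm49513 on its own strand, and no value of these 2 is given here.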

How the data were processed

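Liver RNA-seq was analysed from 36 libraries of 12 groups, 3 mice each. Reads of a stranded library were aligned by the authors to mm10 with TopHat2 2.1.1, which runs Bowtie2, and Cufflinks 2.2.1 gave the FPKM values that were deposited, per the labels and the methods of the study. The annotation and the strand setting of the counting are not given in the sources used here. The deposited tables, 1 per condition, share their column names, so the condition of a column was taken from the name of its table and checked against plotted group means. The 280 symbols on more than 1 row were left out. FPKM holds no counts, so the depth in reads, and the precision it sets for low genes, is not known, and FPKM carries composition: a few very abundant transcripts lower or raise all others in a library.

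Values were tested as log2(FPKM + 1) with limma 3.58.1 in R 4.3.3, with an intensity trend, over 13215 genes of a mean of at least 0.1 FPKM. Fold changes on this scale understate those of low genes. Rhythms were tested by a moderated F test of a 24 h cosine in each condition (nominal P of 0.01). The interaction of condition with the cosine, the interaction with time point, the level over all time points, the level at ZT4 and ZT8 (12 libraries) and the level at each time point were tested with BH adjusted p of 0.05 over all genes. The fits were also run on simulated data, with independent noise of the same spread in all libraries of a gene. That run could not show how outlying libraries affect the calls. Named genes were the 8 members, and from each list the 2 genes higher and the 2 lower over all time points with the smallest P among those called, the 2 with the smallest P in each rhythm test among those called, the 3 genes most like each member by Pearson r, and Mlx, Srebf1, Gys2 and Fasn. A few genes that the rule names are not reported here. Names beyond this rule were chosen after their values were seen. The members and lists were chosen with earlier results of these data known. Nothing says that the 3 libraries of a group came from separate experiments, and p-values measure the spread between these mice. Motifs were searched in RefSeq promoter windows of GRCm38.p6, and positions are from GENCODE vM21. Alternatives were another pseudocount (0.1), no filter or a mean of 1 FPKM, a common sum, median-ratio and quantile scaling, array weights, a replicate block, and leaving out each library or the 3 libraries of high Saa1. Tables were handled in Python 3.11.15 with pandas 2.3.3, and plots drawn with matplotlib 3.10.9.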

Additional observations from a re-analysis of the deposited data

Results flagged for a closer look

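For 2 members, every IH library lay above every control library at some hours and below at another. Of all genes, 26.7% lay wholly above control at ZT4, 6.74% wholly below at ZT12 and 4.18% wholly below at ZT20. For Txnip, IH lay above at ZT4 (difference of 1.67 on the log2 scale) and below at ZT20 (-0.26 ± 0.30, SE), so the differences were 1.92 apart. For Gckr, IH lay above at ZT4 (0.32) and below at ZT12 (-0.18 ± 0.11), 0.50 apart. Neither value below control passed the limma test of its hour. The difference between these chosen hours was not tested, since they were picked after the values were seen. The test over all 6 time points gave a limma adjusted p of 0.085 for Txnip and 0.28 for Gckr.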

How the results depend on the processing

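The count of members called was recomputed under each alternative. Rhythms in control (5 members) fell to 3 with a common sum, beside 18.3% of all genes in place of 20.0%. They rose to 7 with quantile normalization (21.8% of all genes) or array weights (31.6%), and to 6 with the median ratio (22.1%). With an F test over the 6 time points, 6 members were called in each condition, beside 21.0% of all genes in control and 39.7% in IH. Differing time courses (0 members) became 1 with quantile normalization or an unadjusted P of 0.01, 3 with array weights and 2 without the 3 libraries of high Saa1, while the share of all genes went from 0.136% to 0.409%, 4.80%, 10.2% and 0.795%. Over all time points (1 member) the count became 3 with array weights, 2 without those 3 libraries and 4 at an unadjusted P of 0.01, beside 2.38%, 1.38% and 3.34% of all genes in place of 0.356%. At ZT4 and ZT8 (4 members) it became 0 with ZT8 alone, where 0 of all genes were called higher and 0 lower. It became 5 with ZT4 alone, where 531 genes were called higher and 198 lower. Over the 48 single time points (3 calls) it became 1 with a common sum, 6 with array weights, 5 without the 3 libraries or with each time point fitted alone, and 11 at an unadjusted P of 0.01, and the share of all values went from 0.324% to 0.0656%, 4.48%, 1.70%, 0.922% and 3.51%. The cause of these changes was not tested. The count of members rhythmic in IH (7) stayed between 6 and 8, and that of differing cosines at 0, under every alternative run. Leaving out each library gave 3 to 6 members rhythmic in control, 7 to 8 in IH, 0 to 2 with differing time courses, 1 to 2 over all time points, 3 to 4 at ZT4 and ZT8 and 1 to 4 single time points.

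Residuals of same-numbered IH and control libraries correlated by 0.054 on average (-0.18 to 0.29), and by 0.29, 0.27 and 0.14 at ZT12. A mean over pairs cannot show whether the replicate numbers pair the mice. With a replicate block 3 members were rhythmic in control, beside 18.3% of all genes, the calls of Gckr and Slc2a2 being lost. The other counts of members did not change. At ZT4 and ZT8, the genes higher in IH with no filter on low values were 5 of the ChREBP targets, 2 of glycolysis, 3 of fructose handling, 1 of the partners and regulators, 0 of the insulin arm and 2 of the paralogues (3.29% of all genes called), and with the block 8, 3, 5, 1, 0 and 3 (6.82%). With array weights 11 ChREBP targets were higher over all time points.

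The difference of Mlxipl at ZT4 and ZT8 turned to -0.032 with the median ratio, -0.022 with quantile normalization and -0.055 with ZT8 alone, and ran from -0.0057 to 0.070 over single libraries left out. That of Pfkfb1 was -0.032 with ZT4 alone and that of Txnip -0.38 with ZT8 alone. None of these was called in either fit. Of the 641 member values under alternatives that leave out no single library, 574 kept their direction and side of the threshold, 16 lost a call, 46 gained 1 and 5 turned. Single-hour differences with an unadjusted P above 0.01 (37 of 48) were not listed one by one; 44 of their 1739 values had the other sign, 0 of them called.

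Calls also changed with single libraries. That of Gckr at ZT4 and ZT8 was lost without any IH library at ZT4, IH ZT8 replicate 1 or 2, control ZT4 replicate 1 or control ZT8 replicate 1. That of Slc2a2 at ZT4 was lost without any IH library of ZT4, ZT8 or ZT16, IH ZT20 replicate 1, control ZT0 replicate 3, any control library of ZT4 or ZT20, or control ZT16 replicate 1 or 2 (adjusted p = 0.051 to 0.18). Pklr at ZT12 passed without IH ZT0 replicate 2, control ZT12 replicate 1 or control ZT12 replicate 3 (adjusted p = 0.0019 to 0.050). Without these libraries, in that order, 0.520%, 2.92% and 4.17% of the single time point values of all genes passed, in place of 0.324%. The time course of Txnip passed without IH ZT0 replicate 3, control ZT12 replicate 2 or 3, or control ZT16 replicate 3 (adjusted p = 0.021 to 0.046), that of Gckr without IH ZT0 replicate 3 (adjusted p = 0.044), and that of Slc2a2 without the 3 libraries of high Saa1 (adjusted p = 0.032). Rhythms of Slc2a2 in control were lost without any control library of ZT0 or ZT8, control ZT12 replicate 1 or 3, or control ZT20 replicate 3, and those of Gckr without control ZT8 replicate 2 or 3, control ZT16 replicate 1 or 2, or control ZT20 replicate 1.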
